A study of Schizosaccharomyces pombe with 4 samples.

Results

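The taz1 allele labelled L593F was compared with wild-type taz1 by chromatin immunoprecipitation and hybridisation to a tiling array (ChIP-chip) in the fission yeast Schizosaccharomyces pombe. The comparison rests on 2 of the 4 arrays of the series, chosen by their titles. The first, called Taz1_wt here, holds DNA precipitated from wild-type cells, and the second, called Taz1_L593F, holds DNA precipitated from taz1l593F (mut5) cells with the same antibody, raised against recombinant Taz1. Both cultures grew exponentially in rich medium and were fixed with paraformaldehyde, and no untagged, taz1-deleted or mock precipitate was among the 4 arrays. The other arrays, Taz1_GFP (GFP antibody, GFP-tagged Taz1) and Rif1_Myc (Myc antibody, Myc-tagged Rif1), are used only for reference. Each array carried 41551 tiles of 60 bases, spaced by 300 bp, of which 18457 lay on the first chromosome (I), 14836 on II and 7958 on III. A further 110 tiles came from a mating-type contig (mat), 61 from the mitochondrial genome and 129 from 9 clones named pNSU.

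Taz1 binds the double-stranded telomere repeats of fission yeast through a DNA-binding domain of the Myb type near its carboxyl end and recruits the rest of the telomere complex, among it Rap1 and Rif1. It is known for restraining telomere length, for protecting chromosome ends from fusion, and for keeping a group of replication origins late, some of which lie far from telomeres beside short stretches of telomere-like repeat. Clones of the pNSU name are known as pieces of telomere-adjacent DNA of this yeast, but the files do not say what the 9 clones on the array hold. The comparison asks at which of these places the mutant protein was still recovered.

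The allele name L593F stands for a change from leucine to phenylalanine. In the RefSeq annotation of assembly ASM294v3, taz1 lies on chromosome I, minus strand, and encodes 663 residues. The codon with the number in the allele name reads CCG, which encodes proline, while codon 594 reads TTA, which encodes leucine. Which numbering the label follows was not stated by the labels or files. The stretch below is shown because it is where the allele name points; it is the coding strand at chrI:3091420-3091482, with the codon of that number in capitals.
taz1: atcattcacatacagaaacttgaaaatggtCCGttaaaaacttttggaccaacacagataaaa

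Values are log2 of immunoprecipitated (IP, Cy5) over whole-cell extract (WCE, Cy3) DNA after subtraction of each array's median, so that 1 is a 2-fold enrichment over the typical tile. With 1 array a side there is no replicate error and no test between the arrays, and since every array was on a separate slide, genotype and slide cannot be told apart. The spread over internal tiles (a robust SD) was 0.23 on Taz1_wt and 0.19 on Taz1_L593F. Every SD below is over the tiles of 1 region or gene on 1 array. Positions are those in the probe names, whose build no label or header names; genes were assigned after the tiles had been registered to ASM294v3 by GC content. Internal means outside the outer 50 kb of each chromosome and outside the centromeres.

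Taz1_L593F had lower ratios than Taz1_wt in the pNSU clones, near chromosome ends and at internal peaks. In pNSU clones the median was 3.99 on Taz1_wt and 1.75 on Taz1_L593F, or 15.9-fold and 3.36-fold. Within 10 kb of the tiled ends of I and II it was 1.91 and 0.53, or 3.76-fold and 1.45-fold. At the 12 tallest internal regions the median of the region means was 1.21 and 0.08. Over all chromosome tiles, 264 of 41176 were at least 2-fold lower on Taz1_L593F, a background of 0.641%, and 75 were at least 2-fold higher, a background of 0.182%. Depleted classes moved the other way: mitochondrial tiles and the central stretches of centromeres, which lay far below 0 on Taz1_wt, were nearer to 0 on Taz1_L593F, as the enriched classes were. How much of the differences a narrower range of ratios on Taz1_L593F makes up was not tested.

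**Figure D1:**
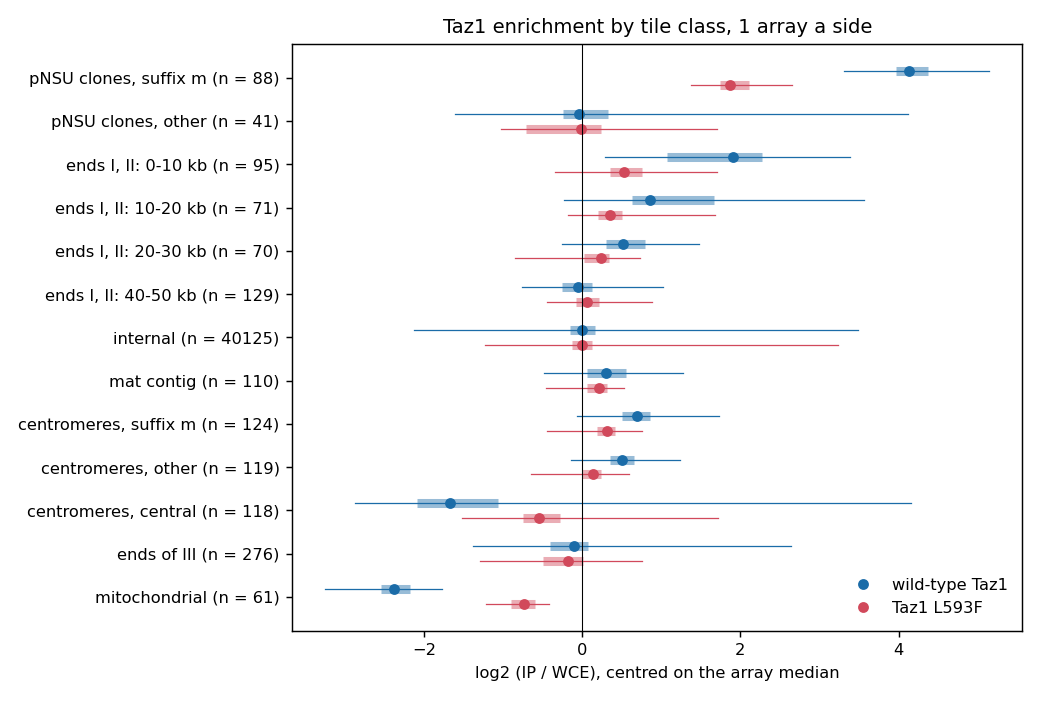
Log2 IP over WCE (x axis, centred on the array median) for 13 classes of tiles on Taz1_wt (blue) and Taz1_L593F (red). Points are medians, thick bars are quartiles and thin lines are the lowest and highest tile. The red medians lie nearer to 0 than the blue ones in the pNSU tiles of suffix m (1.87 against 4.14), in the outer 10 kb (0.53 against 1.91) and in mitochondrial tiles (−0.73 against −2.38).

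Most pNSU tiles were strongly enriched on Taz1_wt. The 88 tiles whose names end in m, taken as probes with several genomic copies, ranged from 3.31 to 5.15 on Taz1_wt, around a median of 4.14 or 17.6-fold. On Taz1_L593F the same tiles ranged from 1.38 to 2.65, around a median of 1.87 or 3.66-fold. The ranges did not overlap, and 88 of 88 tiles were at least 2-fold lower on Taz1_L593F, against 0.641% of chromosome tiles. Probes with several copies can read the same repeats, so the 88 are not separate observations. Of the remaining 41 tiles, 8 were also high, between 3.58 and 4.12 on Taz1_wt and between 1.29 and 1.71 on Taz1_L593F. The other 33 lay between −1.60 and 0.66 on Taz1_wt and between −1.03 and 0.43 on Taz1_L593F. These high values were not particular to 1 clone: the medians of pNSU28, pNSU32, pNSU64, pNSU65 and pNSU70 lay between 4.03 and 4.51 on Taz1_wt and between 1.72 and 2.30 on Taz1_L593F. The 27 tiles of pNSU21 lay between 3.31 and 4.88 on Taz1_wt and between 1.38 and 2.43 on Taz1_L593F. The clone pNSU68 had 1 high tile (3.99 and 1.39) and 1 low tile (0.06 and 0.03). Tile by tile the arrays kept the same order, with r = 0.97 over 129 tiles, over high and low tiles together and with shared probes.

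Clones with high and low tiles showed where the signal stopped. In pNSU71 the 8 tiles up to position 5400 had medians of 4.18 on Taz1_wt and 2.02 on Taz1_L593F. The tile at 5400 read 3.88 and 1.83, and the next, at 6000, read 0.03 and −0.27. From 6000 on, the 21 tiles had medians of −0.06 and 0.07. The step thus stood at the same tile for both proteins. In pNSU77 it ran the other way. The tile at 4800 read 0.33 on Taz1_wt and −0.80 on Taz1_L593F, and the tile at 5100 read 4.28 and 1.97. Before the step, the 11 tiles had medians of −0.72 and −0.85, whereas Taz1_GFP had 1.03 there.

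Both channels moved in the pNSU tiles. With each channel centred on internal tiles, the tiles of suffix m had an IP signal lower by a median log2 of −0.89 on Taz1_L593F, and a WCE signal higher by 1.36, or 2.57-fold. The median processed WCE signal of these tiles was 860 on Taz1_wt and 2112 on Taz1_L593F, and the median IP signal was 14178 and 8590. The WCE difference was thus the larger of the pair. Against internal tiles, the WCE signal of these tiles stood at −0.35 for Taz1_wt and 0.98 for Taz1_L593F, with −1.18 for Taz1_GFP and 0.23 for Rif1_Myc. The WCE level thus also differed among the other 3 arrays, and its part in the pNSU difference was not tested. With the IP channel alone, an alternative chosen after the values were seen, the median difference over all 129 tiles was −0.68 in place of −2.11.

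**Figure D2:**
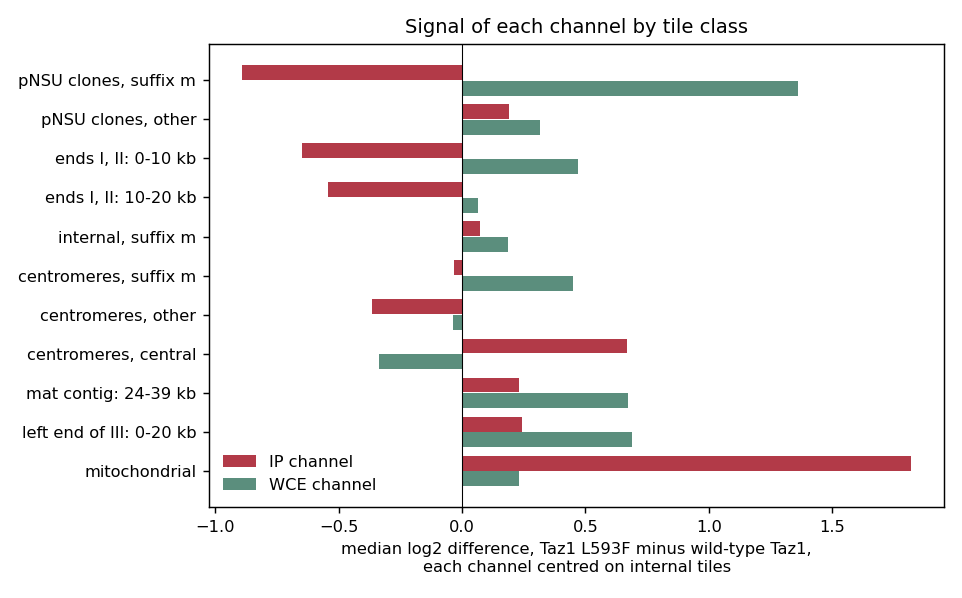
Median log2 difference of Taz1_L593F minus Taz1_wt (x axis) in the IP channel (red bars) and the WCE channel (green bars), each centred on internal tiles, for 11 classes of tiles. In the pNSU tiles of suffix m the WCE bar (1.36) is longer than the IP bar (−0.89), and in the mitochondrial tiles the IP bar (1.82) is longer than the WCE bar (0.23).

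In the outer 20 kb of the tiled ends Taz1_L593F was lower, and farther in the ends differed. At the left end of chromosome I, the Taz1_wt medians by successive 10 kb were 2.20, 1.79, 0.82, 0.50 and 0.01. The Taz1_L593F medians of the same bins were 0.70, 0.53, 0.33, 0.20 and 0.06. Both declined inward and were near 0 in the last bin. At the right end of chromosome I the first bin had 2.11 on Taz1_wt and 0.55 on Taz1_L593F, and the second 0.68 and 0.22, while the last had −0.05 and 0.15. At the left end of chromosome II it was lower from the start, with 0.84 and 0.26 in the first bin and 0.57 and 0.24 in the second. Farther in at this end Taz1_L593F was higher, with −0.10 and 0.13 from 30 to 40 kb and −0.26 and −0.00 from 40 to 50 kb. Over its whole 50 kb, 59 of 116 tiles were lower and the median difference was −0.01. Tiles of the other end of II began 30 kb inward, where the first bin had 0.73 and 0.21. In the outer 10 kb, 95 of 95 tiles were lower on Taz1_L593F, against 51.4% of internal tiles. Of them, 62 were at least 2-fold lower, against 0.641% of chromosome tiles. From 40 to 50 kb, 52 of 128 tiles were lower.

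**Figure D3:**
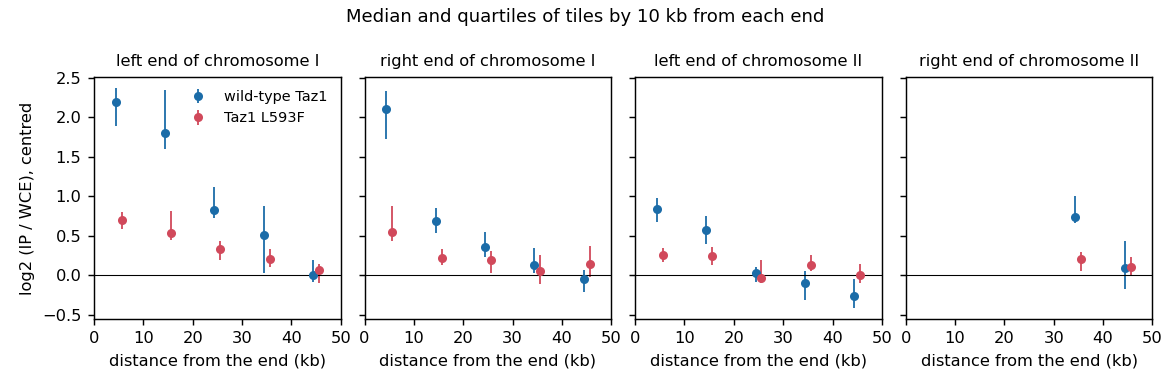
Log2 IP over WCE (y axis) by 10 kb from each end of chromosomes I and II (x axis). Points are medians of the tiles in a bin and bars are quartiles, Taz1_wt in blue and Taz1_L593F in red; the outer bins of the right end of chromosome II hold no tiles. The gap is widest in the outer bins of chromosome I (2.20 against 0.70 at its left end). At 40 to 50 kb the red medians lie above the blue ones at both ends of chromosome I. They do so most at the left end of chromosome II (−0.00 against −0.26).

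Over the 488 tiles measured within 50 kb of these ends, the Taz1_wt median was 0.46 and the Taz1_L593F median 0.23, and the median of the tile differences was −0.32. The arrays correlated at r = 0.74 over these tiles, against 0.19 over 40054 internal tiles, which share probes and base composition. The channels differed by distance. From 10 to 20 kb, the IP channel was lower on Taz1_L593F by a median log2 of −0.54 and the WCE channel higher by 0.06. In the outer 10 kb the IP channel was lower by −0.65, and the WCE channel was higher by 0.47. The part of the WCE channel in the outer bin was not tested.

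Genes of the outer 20 kb show the same at gene scale, where a value is the mean of tiles within the gene and 500 bp on each side. The gene tlh1, which encodes a RecQ-type helicase of subtelomeres, read 2.30 ± 0.25 (SD over 22 tiles) on Taz1_wt and 0.76 ± 0.15 on Taz1_L593F. SPAC212.06C, farther from the end, was higher than tlh1 on both arrays, with 2.98 ± 0.44 and 1.26 ± 0.37 over 6 tiles. It held the highest gene mean of this zone on Taz1_L593F, so the mutant profile, like that of Taz1_wt, did not peak at the outermost gene. At both genes the WCE channel differed more than the IP channel, by 0.85 and −0.68 at tlh1 and by 1.06 and −0.66 at SPAC212.06C. SPAC212.12 had 2.25 and 0.67, SPAC750.08C had 1.82 and 0.53, SPAC750.07C had 1.79 and 0.53, and SPAC212.08C had 1.42 and 0.40. These 6 were chosen for their high Taz1_L593F values, and all lie on chromosome I. Of all 18 protein-coding genes measured within 20 kb of the tiled ends, 9 were at least 1.5-fold lower on Taz1_L593F, 8 of 11 on chromosome I and 1 of 7 on chromosome II, against a background of 94 of 5458 genes, or 1.72%.

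Regions were called on Taz1_GFP, an array that neither side of the comparison uses, as runs of tiles whose running median of 3 tiles reached 2-fold. There were 14 such regions near the ends of chromosomes I and II, and 13 of them had a lower mean on Taz1_L593F than on Taz1_wt. The 3 tallest, at SPAC212.06C, SPAC750.06C and tlh1 on chromosome I, had means of 1.97, 1.96 and 2.11 on Taz1_wt and of 0.74, 0.63 and 0.66 on Taz1_L593F. In these 3 the IP channel was lower by a median of −0.81 and the WCE channel higher by 0.52. The exception among the 14 was gdt1, with 0.20 on Taz1_wt and 0.28 on Taz1_L593F. On Taz1_L593F itself, the running median reached 2-fold at 0.017% of chromosome tiles, against 0.546% on Taz1_wt and 1.24% on Taz1_GFP, and the 3 regions it formed were at these same 3 places.

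Inside the chromosomes Taz1_L593F was close to its array median at most regions. Of 61 internal Taz1_GFP regions, 60 had a lower mean on Taz1_L593F than on Taz1_wt, where 51.4% of internal tiles were lower. The median of the region means was 0.53 on Taz1_wt and 0.03 on Taz1_L593F, and the median difference was −0.44. The Taz1_L593F mean lay within 0.2 of the array median in 38 of 61 regions and below 0 in 27. No internal region reached 2-fold on Taz1_L593F, where 14 did on Taz1_wt. Across the 61 regions the means correlated at r = 0.22 (rho = 0.32) between Taz1_wt and Taz1_L593F, and at r = 0.50 (rho = 0.31) between Taz1_wt and Taz1_GFP. Across the 14 end regions these values were 0.86 (rho = 0.61) and 0.80 (rho = 0.56), with shared probes throughout. In these internal regions the IP channel carried the difference, with a median of −0.47 for IP and 0.04 for WCE.

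**Figure D4:**
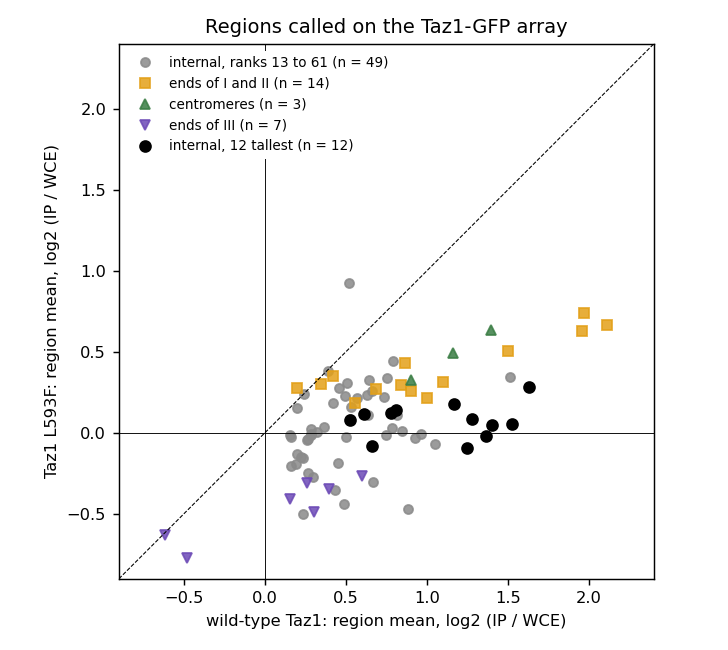
Region means of log2 IP over WCE on Taz1_wt (x axis) and Taz1_L593F (y axis) for the 85 regions called on Taz1_GFP, by place; the dashed line marks equal values. The 12 tallest internal regions (black) lie between −0.09 and 0.28 on the y axis whatever their Taz1_wt mean, and the end regions (orange) rise with it.

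The 12 tallest internal regions were all lower on Taz1_L593F, 10 of them at least 1.5-fold and 6 at least 2-fold. The tallest lay on chromosome II (1866000 to 1873800), between erf2 and SPBC3H7.08C. Its 26 tiles had a mean of 1.28 ± 0.87 on Taz1_wt and 0.09 ± 0.18 on Taz1_L593F, and at the summit the running median was 3.11 against 0.38. All 26 tiles were lower on Taz1_L593F. The region beside rcr1 on chromosome II (2826900 to 2833800) had means of 1.36 and −0.02, and that at ivn1 on chromosome II (1495800 to 1503300) had 1.17 and 0.18. The region between gpa2 and avl9 on chromosome I (2521200 to 2524500) had 1.40 and 0.05; gpa2 encodes a G protein alpha subunit of the glucose signalling pathway. In these 4 the Taz1_L593F mean was close to the array median.

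The same held beside genes of known function. At gap1, which encodes a GTPase-activating protein for Ras1, the region on chromosome II (948000 to 951900) had means of 1.25 ± 0.50 and −0.09 ± 0.25 over 13 tiles. At coa6, a cytochrome c oxidase assembly factor gene, the region on chromosome II (2339400 to 2342100) had 1.52 and 0.05, the widest difference of the 61 at −1.47. At mae1, the malate permease gene, the region on chromosome I (4907700 to 4908900) had 1.63 and 0.28, the highest means of the 12 on either array. Lower wild-type means left smaller differences. The region at cuf1, a copper-sensing transcription factor gene on chromosome I (408000 to 413100), had 0.81 and 0.14, and that at the enolase gene eno101 on chromosome II (2199000 to 2202900) had 0.66 and −0.08. The region at mug157 on chromosome I (4598700 to 4600800) had 0.78 and 0.12. The 2 with the smallest differences were iec1, an INO80 complex subunit gene on chromosome I (4645800 to 4651200), with 0.61 and 0.11, and SPAC806.06C on chromosome I (243900 to 248100), with 0.53 and 0.08. Both were among the 7 tallest on Taz1_GFP, with means of 2.08 and 2.11 there.

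At the centre of the 12 regions Taz1_L593F was slightly above its array median. At the summit tile the median over the 12 was 1.91 on Taz1_wt and 0.39 on Taz1_L593F. At 300 bp it was 1.63 and 0.28, at 600 to 900 bp 0.89 and 0.07, and at 1200 to 1800 bp 0.61 and −0.08. Past that distance Taz1_L593F stayed at −0.00 (2100 to 3000 bp) and 0.01 (3300 to 6000 bp), while Taz1_wt was at 0.44 and 0.25. The summit tile was above 0 on Taz1_L593F at 10 of the 12, and above the 99th percentile of internal tiles, 0.48, at 4 of them, where 1% of internal tiles lie by construction. Those 4 were ivn1 (0.59), cuf1 (0.58), mae1 (0.54) and SPBC3H7.08C (0.49). The lowest was coa6, whose summit tile read 2.12 on Taz1_wt and −0.62 on Taz1_L593F. On Taz1_wt all 12 summit tiles were above that array's 99th percentile of 0.73. Over all internal tiles, Taz1_L593F correlated at r = 0.25 with Taz1_GFP, the array on which the summits were chosen. Its correlation with GC content was r = −0.23. The part of either in the summit values was not tested.

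**Figure D5:**
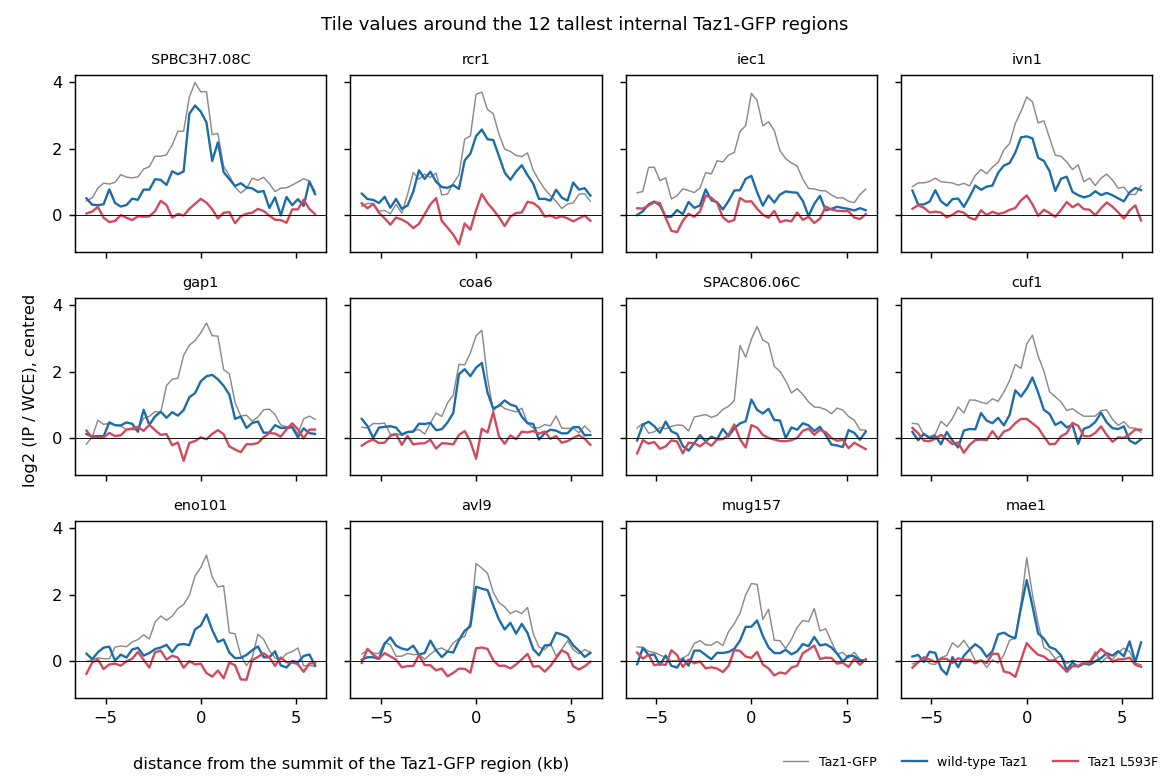
Tile values of log2 IP over WCE (y axis) within 6 kb of the summit (x axis, kb) of the 12 tallest internal Taz1_GFP regions, with Taz1_GFP in grey, Taz1_wt in blue and Taz1_L593F in red. The blue peaks reach 1.04 to 3.11 at the summit tile and the red line runs between −0.62 and 0.59 there.

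The summits of these regions lay mostly between genes. On the registration, 11 of the 12 summits and 37 of 61 (60.7%) fell between protein-coding genes, against 21.1% of all internal tiles. The median GC content was 34.0% for tiles of the 12 regions, 33.3% for the 61 and 36.3% for internal tiles. The 250 bases upstream of the annotated gene start are given below for SPBC3H7.08C (chrII:1868696-1868945, plus strand) and ivn1 (chrII:1497556-1497805, minus strand). The first is beside the tallest region, but its summit lay 396 bp upstream, outside the printed bases, so they do not show that site. The second, ivn1, is the only one of the 12 whose summit lay within 250 bp upstream of its nearest gene, at 195 bp. Both are RefSeq sequence of ASM294v3, and ivn1 was chosen after the values were seen. Capitals would mark GGTTAC, the core of the telomere repeat of this yeast, or its complement GTAACC; these letters are in neither window.
SPBC3H7.08C: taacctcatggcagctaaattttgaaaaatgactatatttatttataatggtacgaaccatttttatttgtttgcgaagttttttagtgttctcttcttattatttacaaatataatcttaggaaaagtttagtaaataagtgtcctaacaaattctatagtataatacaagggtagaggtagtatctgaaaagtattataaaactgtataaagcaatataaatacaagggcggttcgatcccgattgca
ivn1: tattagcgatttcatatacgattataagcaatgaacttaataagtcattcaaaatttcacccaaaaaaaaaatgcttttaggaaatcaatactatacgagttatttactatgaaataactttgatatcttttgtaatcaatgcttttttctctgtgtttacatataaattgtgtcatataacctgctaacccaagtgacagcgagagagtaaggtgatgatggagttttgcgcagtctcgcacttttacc

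In windows from 250 bp upstream to 50 bp downstream of the gene start, GGTTAC or GTAACC occurred for 1 of the 12 nearest genes, coa6, and for 375 of 5112 protein-coding genes (7.34%). Of the 12 summits, 10 lay upstream of the start of their nearest gene, by 195 to 1446 bp, so most fell outside the windows.

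The other 49 internal regions were lower on Taz1_wt, with a median mean of 0.49, and had a median of 0.00 on Taz1_L593F. Among them was mae2, the malic enzyme gene on chromosome III (275700 to 277200), with 1.52 ± 0.17 on Taz1_wt and 0.34 ± 0.05 on Taz1_L593F. Ranked by the Taz1_L593F mean, the highest of the 61 regions was fep1, the iron-sensing GATA factor gene on chromosome I (446400 to 447000), with 0.52 on Taz1_wt, 0.92 on Taz1_L593F and 1.27 on Taz1_GFP over 2 tiles. It was the only one of the 61 with a higher mean on Taz1_L593F. Its tiles were weak, with a WCE signal of −3.38 on Taz1_wt and −3.35 on Taz1_L593F (log2 against internal tiles). The others of the highest 5 were sus1, a SAGA subunit gene (0.79 and 0.44), mat1-Mc (0.39 and 0.38), mae2 and svf1 (0.76 and 0.34 on 1 tile). The lowest 5 were ski7 (0.23 and −0.50), SPBTRNAGLU.08 (0.89 and −0.47), the NIMA-related kinase gene fin1 (0.49 and −0.44), SPCC16C4.21 (0.43 and −0.35) and the corepressor gene ssn6 (0.67 and −0.30). All 5 lay below the array median on Taz1_L593F and above it on Taz1_wt, in 2 to 4 tiles each. The tiles of ski7 were weak too, with WCE at −3.04 on Taz1_wt and −3.19 on Taz1_L593F. The part of low signal in these extremes was not tested. At ste11, the gene of the transcription factor that starts sexual differentiation, the means were 0.66 and 0.26.

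At a 1.5-fold threshold, Taz1_L593F had 12 internal regions of its own. The 5 highest by running median were fep1 (0.91), the retrotransposon Tf2-8 (0.76), coq10, a coenzyme Q gene (0.75), the interval between ofd1 and sus1 (0.69) and Tf2-4 (0.64). The 12 held 8 Tf2 elements, each called on tiles of suffix m, and Taz1_wt had 147 internal regions at this threshold. At coq10 Taz1_wt read 0.25 and Taz1_GFP −0.14, and at the ofd1 interval Taz1_wt read 1.02 over the same 2 tiles. Of the 5, the ofd1 and fep1 regions were also 2-fold regions of Taz1_GFP.

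Of the 155 internal tiles that were at least 2-fold lower on Taz1_L593F, 90 lay in a Taz1_GFP region and 107 within 3 kb of one. The remaining tiles lay farther from any such region. For scale, the running median on Taz1_GFP reached 2-fold at 1.24% of all chromosome tiles. The share of all internal tiles within 3 kb of a region was not counted. Only 10 internal tiles were at least 2-fold higher. The widest difference was a single tile at gsf2 on chromosome III (968400 to 968700), which read 3.24 on Taz1_L593F, 0.87 on Taz1_wt and 1.18 on Taz1_GFP. It was the highest internal tile of Taz1_L593F. The tile at zfs1 on chromosome II (3487800 to 3488100) read 1.92 and 0.48. The other 8 were below 0 on Taz1_wt, from −0.32 to −2.12.

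Centromeric tiles behaved in opposite ways by their place. In tiles of suffix m, taken as the repeats around the core, Taz1_wt had a median of 0.70 and Taz1_L593F of 0.31, and 117 of 123 tiles were lower. The IP channel hardly differed there, with a median of −0.03, and the WCE channel was higher on Taz1_L593F by 0.45. In the central stretches, the longest runs without suffix m between such repeats, Taz1_wt had a median of −1.67 and Taz1_L593F of −0.54, so that the tiles depleted on Taz1_wt lay nearer to the array median. By chromosome they were −1.88 and −0.73 on I, −1.64 and −0.30 on II, and −1.56 and −0.49 on III. The central stretches held 62 of the 75 chromosome tiles that were at least 2-fold higher on Taz1_L593F. In them the IP channel was higher by 0.67 and the WCE channel lower by −0.34. Their WCE signal against internal tiles was −0.56 for Taz1_wt and −0.93 for Taz1_L593F but −3.23 for Taz1_GFP and −3.39 for Rif1_Myc. How these WCE levels bear on the ratios was not tested.

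One tile of the central stretch of centromere II, at 1628100 to 1628400, stood apart. It read 4.16 on Taz1_wt, 1.71 on Taz1_L593F, 5.14 on Taz1_GFP and 4.34 on Rif1_Myc, while the 3 tiles on each side lay between −2.24 and −1.79 on Taz1_wt and between −0.78 and −0.39 on Taz1_L593F. These values are close to those of the pNSU tiles of suffix m. The tile was picked after its values were seen, and whether its probe matches other sequence was not tested.

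The mitochondrial tiles had the largest upward difference of the classes described here. On Taz1_wt they ranged from −3.24 to −1.76 around a median of −2.38, and on Taz1_L593F from −1.21 to −0.42 around a median of −0.73. The ranges did not overlap, and 60 of 61 tiles were at least 2-fold higher on Taz1_L593F, against 0.182% of chromosome tiles. The median processed IP signal was 1759 and 6352, and the median WCE signal 9213 and 10117, so the difference lay in the IP channel. Taz1_GFP had a median of −1.87 and Rif1_Myc of −3.11. Taz1 is a nuclear protein, and the relative amount of mitochondrial DNA in the Taz1_L593F precipitate was higher on the same array whose peaks were lower. Its part in the differences at Taz1 peaks was not tested.

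The mat contig and the mating-type interval of chromosome II, taken from mat1-Mi to mat3-Mc and so including mat1, changed little. Over the 110 tiles of the contig Taz1_wt had a median of 0.30 and Taz1_L593F of 0.22, and 69 of 109 measured tiles were lower. The difference was concentrated in the tiles from 24 to 39 kb, with 0.59 and 0.31 and 36 of 38 lower, where the WCE channel was higher on Taz1_L593F by 0.67 and the IP channel by 0.23. In the mating-type interval of chromosome II both arrays had a median of 0.18, and the median difference of −0.07 turned to 0.02 with normexp background correction. At the ends of chromosome III, next to the ribosomal DNA, Taz1_wt formed 2 regions at 2-fold and Taz1_L593F 0, although neither median was above 0. The medians over 50 kb were −0.10 and −0.18, and the difference turned sign with normexp. In the outer 20 kb at its left end they were −0.58 and −0.65, while Taz1_GFP had 1.40. The highest tile of each array there read 2.64 on Taz1_wt and 0.39 on Taz1_L593F. At that end 8 of 49 tiles were at least 2-fold lower on Taz1_L593F, against 0.641% of chromosome tiles. The 7 Taz1_GFP regions over both ends of chromosome III had means from −0.62 to 0.60 on Taz1_wt and from −0.77 to −0.27 on Taz1_L593F.

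Gene lists give the mean over each gene and its flanks. Some members, among them mae1, gap1, gpa2 and eno101, lie beside the tall peaks described above, so their values are not separate from those peaks. Over all 5458 genes the median difference was −0.01, and 53% were lower on Taz1_L593F by any amount. The malate genes mae1 and mae2 were both at least 1.5-fold lower, with gene means of 0.86 and 0.99 on Taz1_wt and 0.04 and 0.28 on Taz1_L593F. Among 11 genes of the cAMP and Ras pathways the median was 0.06 and 0.00, and none of the 11 was 1.5-fold lower. The 3 widest differences were those of gpa2 (0.36 and −0.09), the adenylate cyclase gene cyr1 (0.45 and −0.00) and gap1 (0.51 and 0.07). The list's highest on Taz1_L593F was git5 (0.01 and 0.11) and its lowest ste6 (−0.19 and −0.11).

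Meiotic genes, some of which are known to carry heterochromatin marks in vegetative cells, showed no enrichment on either array. The 12 genes had medians of −0.04 and 0.05, from mug9 (−0.14 and −0.15) to mug8 (0.12 and 0.13), with 0 of 12 past 1.5-fold. The 4 measured mating-type genes of 6 listed were lower on Taz1_L593F, by less than 1.5-fold, from mat1-Mc (0.65 and 0.27) to mat3-Mi (0.45 and 0.10). The locus of taz1 itself read −0.09 and 0.07, and that of rif1 −0.04 and −0.03, so neither stood out on either array.

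Highly transcribed genes had lower values on Taz1_L593F. Of 130 cytosolic ribosomal protein genes, 126 were lower, against 53% of all genes, with medians of 0.27 on Taz1_wt and −0.05 on Taz1_L593F. At least 1.5-fold lower were 6, or 4.6% against 1.72% of all genes. The extremes on Taz1_L593F were rpl3802 (0.49 and 0.27) and rps1201 (0.10 and −0.45). Of 15 other highly transcribed genes 14 were lower, with medians of 0.06 and −0.17, from act1, the actin gene (0.60 and 0.02), to adh1, an alcohol dehydrogenase gene (−0.12 and −0.49). Taz1_GFP had medians of 0.07 and −0.07 for the 2 lists. The IP channel was lower on Taz1_L593F by medians of −0.34 and −0.45 for the 2 lists, and the WCE channel by −0.02 and −0.11.

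Genes of RNA polymerase III showed the same direction. The 36 genes of 5S rRNA had medians of 0.46 on Taz1_wt and 0.09 on Taz1_L593F. Of these, 34 were lower, against 53% of all genes, and 4 were at least 1.5-fold lower, or 11.1% against 1.72%. The extremes on Taz1_L593F were SPRRNA.36 (0.49 and 0.34) and SPRRNA.03 (0.55 and −0.20). The 167 measured tRNA genes had medians of 0.41 and 0.05, with 152 lower, 32 of them at least 1.5-fold, or 19.2% against 1.72% of all genes. The highest on Taz1_L593F was SPATRNAVAL.01 (0.48 and 0.73), a neighbour of the fep1 region. The lowest was SPATRNAILE.03 (−1.39 and −0.77), in the centromere of chromosome I. The 10 genes that were at least 1.5-fold higher on Taz1_L593F, a background of 0.183%, were all centromeric, and 8 of them were tRNA genes. Of the 55 centromeric genes, 51 were tRNA genes, so the 8 do not set tRNA genes apart from that place. For the tRNA genes Taz1_GFP had a median of 0.37 and for the 5S genes 0.34.

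The 13 Tf2 retrotransposons kept most of their signal, with medians of 0.64 on Taz1_wt and 0.49 on Taz1_L593F, from Tf2-10 (0.65 and 0.61) to Tf2-13 (0.67 and 0.33). All 13 were lower, though the median difference of −0.14 turned to 0.05 with normexp and 0.08 with loess. The IP channel was higher by 0.15 and the WCE channel by 0.29. Rif1_Myc had a median of 1.05 there and Taz1_GFP of 0.46. Over all 291 internal tiles of suffix m the medians were 0.54 and 0.41. These values belong to repeats as a whole, since their probes can read several copies.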

How the data were processed

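ChIP-chip was measured on 4 2-colour arrays, 1 for each group, and 2 of them make this comparison. The authors extracted spots with Agilent Feature Extraction 11.5.1.1, per the file headers. Processed red and green signals are intensity values after background subtraction, detrending and dye normalization, per the file headers, and the scanner files as deposited hold a log10 ratio too. The deposited series matrix gives a log2 ratio of these signals without centring (checked on the values; array medians −0.03 for Taz1_wt and −0.01 for Taz1_L593F). Red is IP and green WCE, per the labels' protocols, with no dye swap. DNA was amplified by random-primed PCR, per the labels' protocols, which can distort copy ratios in both channels.

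Here, log2 of red over green was centred on the median of non-control tiles, with no loess and no quantile step. Outlier spots were left out, 74 on Taz1_wt and 2 on Taz1_L593F; no spot was dim on either array and none saturated. The meaning of the suffix m was inferred from the probe names. Array positions were registered on ASM294v3 in 7 segments by the correlation of WCE signal with GC content (r of 0.41 to 0.49 with the shift). Regions needed a running median of 3 tiles of at least 2-fold, with gaps up to 1000 bp merged. Scripts were tested on simulated data. The number of arrays limits the precision: with 1 a side, nothing was tested and no p-value is given.

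The named genes are the 12 tallest internal Taz1_GFP regions, the 5 highest and 5 lowest of these regions on Taz1_L593F, its 5 highest regions outside the ends, tlh1 with 5 other end genes, taz1, rif1 and the extremes of each list; gsf2, zfs1, gdt1, ste11, gpa2, cyr1, the tile of centromere II and the pNSU tiles quoted singly were chosen after their values were seen. The members and lists were chosen with earlier results of these data known. Alternatives were the series matrix values, normexp (offset 50, limma 3.58.1), loess, scaling to the mean MAD (median absolute deviation), spot filters, a GC fit, other region sources and thresholds, and other end widths. Tools were python 3.11.15 with numpy 2.4.6 and pandas 2.3.3, and R 4.3.3.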

Additional observations from a re-analysis of the deposited data

How the results depend on the processing

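No paired analysis was possible because each group held 1 array. Of 79 values under an alternative, 56 stayed within the 95% order-statistic interval of the median over tiles or regions (for the count, within 1.5-fold), which covers spread between tiles only, and 0 turned sign. Some of the 56 could not move: the series matrix holds the same ratios, and no spot was dim on the compared arrays. Leaving out suffix m likewise took no tile from the mitochondrial or mat classes. Outside this tally, the differences of Tf2 elements, the mating-type interval and the ends of chromosome III turned sign with normexp. That of Tf2 elements also turned with loess. The rest of the 79 were as follows. For internal regions the median difference of −0.44 became −1.46 with regions called on Taz1_wt, −0.25 and −0.91 at 1.5-fold and 3-fold thresholds, and −1.09 for the 12 tallest alone. For end regions (−0.60) it became −1.52 at 3-fold. For end tiles (−0.32) it was −0.42 with normexp, −1.09 within 20 kb and −0.052 within 100 kb. For mitochondrial tiles (1.63) it was 2.44 with normexp, 1.34 after MAD scaling and 1.82 for IP alone. For pNSU tiles (−2.11) it was −2.93 with normexp, −1.97 with loess, −1.57 after MAD scaling, −0.12 without suffix m, −2.20 with suffix m only and −0.68 for IP alone. For centromere tiles (−0.26) it was −0.19 with normexp, −0.089 with loess, −0.21 after MAD scaling and −0.11 without suffix m. The mat contig difference (−0.15) ranged from −0.15 to −0.05. The 264 tiles at least 2-fold lower became 1320 with normexp and 1555 at 1.5-fold. Regions called on Taz1_wt are high there by choice, and wider ends hold more unenriched tiles; the other causes were not tested. The 12-tallest, suffix m only and IP-alone settings were chosen after seeing the data. The GC fit was not run for mat, mitochondrial and pNSU tiles, which were not placed on the assembly. No spot was flagged as dim on the compared arrays. Normexp nevertheless moved several of the values above, and some named regions, such as fep1 and ski7, lay on weak tiles. Low signal may thus still limit single values.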
